A study of Mus musculus with 8 samples.

Results

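MicroRNAs (miRNAs) of mouse 3T3 cells were compared between a Lin28 hairpin and a Mos hairpin that were expressed from CAG-EGFP plasmids of the same layout. The comparison used 4 of the 8 small RNA libraries of the study, chosen by the plasmid given in their labels: 2 libraries of cells transfected with CAG-EGFP-Lin28IR and 2 of cells transfected with CAG-EGFP-MosIR. 3T3 cells are an immortalized mouse fibroblast line. Total RNA was taken 48 h after transient transfection. In both plasmids the strong ubiquitous CAG promoter drives an EGFP reporter with a long inverted repeat in its 3′UTR, which folds into double-stranded RNA (dsRNA). The repeat derives from Lin28a and Lin28b mRNA sequences in CAG-EGFP-Lin28IR and from Mos mRNA in CAG-EGFP-MosIR, so each plasmid is the sequence control of the other and neither group lacks dsRNA. Replicates are separately transfected wells of a single cell line. Cells of a well that took up no plasmid are in the library too. The other 4 libraries came from U6-Lin28aIR and U6-MosIR cells, in which the U6 promoter of RNA polymerase III drives a hairpin without EGFP. They entered the same fit to estimate the spread.

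The comparison asks whether endogenous miRNAs differ with the hairpin that is expressed. Whether the hairpins also differ in length, level or processing was not tested here. Long dsRNA and miRNA precursors meet the same enzyme, Dicer, which cuts both into small RNAs that are loaded on Argonaute proteins. A miRNA recognizes its targets mainly through its seed, the bases near its 5′ end, and miRNAs with a common seed form a family. Usually the guide strand of the hairpin is retained and the passenger strand is degraded. The let-7 family is of interest with a Lin28 hairpin, because the Lin28 proteins bind let-7 precursors and block their maturation, and let-7 in turn represses Lin28 mRNAs. Outside embryonic cells let-7 miRNAs are usually abundant and Lin28 is low.

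The mature sequences below are from RefSeq (GRCm38.p6), written 5′ to 3′, with the seed (bases 2 to 8) in capitals. They show why results are given by family: members share the seed and differ in some of the other bases. The first set is the let-7 family, whose guide strands were examined for the reason above.
let-7a-5p: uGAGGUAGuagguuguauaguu
let-7b-5p: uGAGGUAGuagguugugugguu
let-7c-5p: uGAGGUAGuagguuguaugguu
let-7d-5p: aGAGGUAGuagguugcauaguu
let-7e-5p: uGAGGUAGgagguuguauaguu
let-7f-5p: uGAGGUAGuagauuguauaguu
let-7g-5p: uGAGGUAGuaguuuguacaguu
let-7i-5p: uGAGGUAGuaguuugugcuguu
miR-98-5p: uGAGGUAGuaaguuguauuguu

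The second set holds the miRNAs of at least 10 RPM that came nearest to the threshold of the test, with miR-374c-5p, which is less abundant and had the lowest p of all, and miR-92a-3p, which has the seed of miR-32-5p. The whole sequence of miR-374c-5p is also the end of miR-374b-5p, and reads of this stretch cannot be told apart.
miR-374b-5p: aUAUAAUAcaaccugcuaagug
miR-374c-5p: aUAAUACAaccugcuaagug
miR-3535: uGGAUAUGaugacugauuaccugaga
miR-7a-5p: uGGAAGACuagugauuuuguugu
miR-32-5p: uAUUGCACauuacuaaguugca
miR-92a-3p: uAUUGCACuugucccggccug

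The third set is a seed family that was lower with CAG-EGFP-Lin28IR without overlap in every member on the scale of RPM. RPM are the counts of a library scaled to its perfectly mapped reads. Among the families of at least 3 tested members with a mature sequence, it was the only one. Over all 360 tested miRNAs, 41.9% were lower without overlap on this scale.
miR-17-5p: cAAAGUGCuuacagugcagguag
miR-20a-5p: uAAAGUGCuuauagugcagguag
miR-93-5p: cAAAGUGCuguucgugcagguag
miR-106b-5p: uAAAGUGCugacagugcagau

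The 4 libraries were of similar depth, with 14043621 to 15929022 perfectly mapped reads, of which 1733203 to 2427436 were counted on miRNAs. A count of 0 therefore allows up to 0.188 to 0.214 RPM (3 counts), and such limits cover counting error only. Of the mature names, 866 had at least 1 count in the 4 libraries, 303 a mean of at least 1 RPM, 89 at least 100 RPM and 27 at least 1000 RPM. The markers of fibroblasts and mesenchyme were all present, with a summed level between 31205 and 48367 RPM. All 6 markers of pluripotent cells, the miR-290 and miR-302 families, were at 0 counts in the 4 libraries. The liver and endothelium markers were below 1 RPM in every library. The 7 blood markers summed to 1.07 to 2.99 RPM, and miR-451a of red cells had 0 to 4 counts. The 3 muscle markers summed to 0.211 to 1.09 RPM. The 8 epithelial markers summed to 25.7 to 44.2 RPM, nearly all of it miR-203-3p. The 3 neuronal markers summed to 141 to 219 RPM, carried by both strands of miR-9, with miR-124-3p at 2 to 11 counts.

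The share of miRNA counts in the perfectly mapped reads was 13.6% and 10.9% with CAG-EGFP-Lin28IR and 13.2% and 16.5% with CAG-EGFP-MosIR. The ranges overlapped, and the means (12.2% ± 1.9 and 14.8% ± 2.3, SD, n = 2 each) gave an exact two-sided permutation p of 0.667. With 2 libraries against 2, no such test can give less than 0.333. The same test gave 0.667 for the share of 18–30-nt reads, which was 24.3% and 19.3% against 23.2% and 26.9%, and for that of 21–23-nt reads, the size of Dicer products, which was 12.3% and 9.88% against 11.6% and 14.6%. Within the miRNA counts, miR-21a-5p took 25.9% and 26.0% with CAG-EGFP-Lin28IR and 26.8% and 27.3% with CAG-EGFP-MosIR. These values did not overlap (exact two-sided permutation p = 0.333, n = 2 each). Read totals do not tell fewer miRNAs per cell from fewer cells or more of other RNA.

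The scale decides the sign of many values. The median log2 fold change of the 360 tested miRNAs, CAG-EGFP-Lin28IR over CAG-EGFP-MosIR, was −0.34 per perfectly mapped read and 0.005 after TMM scaling, which sets the bulk of the miRNAs equal between libraries. All fold changes below are TMM-scaled and so relative to the other miRNAs, and all RPM values are unscaled.

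No miRNA differed between CAG-EGFP-Lin28IR and CAG-EGFP-MosIR at an adjusted p of 0.05 in edgeR's quasi-likelihood test (0 of 360 tested, 0%). The lowest adjusted p was 0.136. At an unadjusted p under 0.05 there were 19 (5.28%), 16 higher (4.44%) and 3 lower (0.833%) with CAG-EGFP-Lin28IR. DESeq2 also called 0, with 15 at an unadjusted p under 0.05. Of the fold changes 185 were positive and 175 negative, with a median SE of 0.24. For 247 of the 360 miRNAs the 95% interval lay wholly within a 2-fold change in either direction, and for 172 of the 176 with a mean of at least 10 RPM. The plot of fold change against abundance shows the widest values below 1 RPM.

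**Figure D1:**
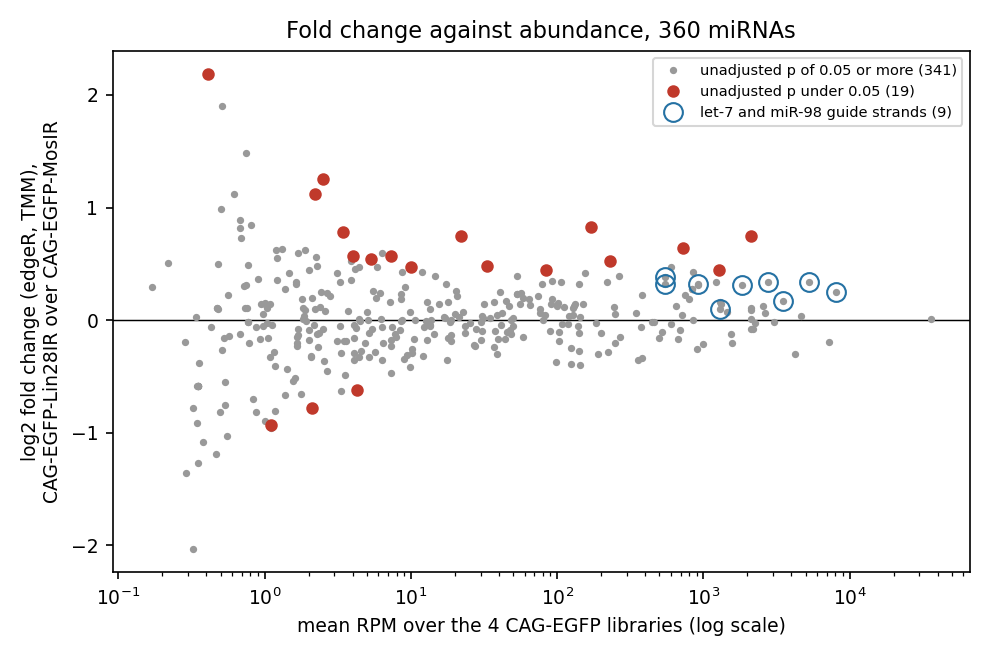
Each point is a miRNA, with the mean RPM over the 4 CAG-EGFP libraries on a log axis and the TMM-scaled log2 fold change of CAG-EGFP-Lin28IR over CAG-EGFP-MosIR on the vertical axis. The 19 red points have an unadjusted p under 0.05, 0 passed adjustment, and the 9 circled let-7 and miR-98 guide strands lie between 0.10 and 0.38, a direction that flips for 8 of them without TMM.

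The miRNAs nearest to the threshold came first from the miR-374 locus. miR-374b-5p is encoded in an intron of the noncoding RNA Ftx, near the X inactivation center, on the minus strand at chrX:103573112-103573133. Its level was 242 and 159.7 RPM with CAG-EGFP-Lin28IR and 161 and 122.5 RPM with CAG-EGFP-MosIR. The RPM ranges overlapped by a narrow margin, though not on the TMM scale, and the lower CAG-EGFP-Lin28IR library lay just under the higher CAG-EGFP-MosIR library. The log2 fold change was 0.82 (SE 0.22, 95% interval 0.37 to 1.27), with an adjusted p of 0.154 by edgeR. miR-374c-5p, named after its values were seen, is encoded on the opposite strand of the same place, at chrX:103573086-103573105. It had 3.63 and 2.89 RPM with CAG-EGFP-Lin28IR and 1.83 and 1.63 RPM with CAG-EGFP-MosIR, without overlap, and the lowest p of all miRNAs (log2 fold change 1.25, SE 0.31, adjusted p 0.136 by edgeR). Since the sequences share reads, these are not separate observations. The other names of the miR-374b cluster did not go with it as closely. miR-374b-3p, the passenger strand, gave a log2 fold change of 0.39 (SE 0.22), and miR-421-3p gave −0.012 (SE 0.20). The call on the miR-374 pair depended on single libraries: both names passed the threshold in the fits without CAG-EGFP-MosIR replicate 1, U6-Lin28aIR replicate 1, U6-Lin28aIR replicate 2 or U6-MosIR replicate 1. For miR-374b-5p the adjusted p without each of the 8 libraries in turn reached down to 0.000276.

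miR-3535 was the only miRNA of at least 100 RPM that was higher in both CAG-EGFP-Lin28IR libraries on the RPM scale. Its locus, on the minus strand at chr1:86352062-86352087, overlaps an exon of the nucleolin gene Ncl and a small nucleolar RNA (snoRNA) gene, Gm24148. It stood at 2501 and 2294 RPM with CAG-EGFP-Lin28IR and at 1674 and 1991 RPM with CAG-EGFP-MosIR. The log2 fold change was 0.75 (SE 0.23, 95% interval 0.27 to 1.22), and the adjusted p was 0.295 by edgeR. Of the nearest miRNAs it moved least when a library was left out, with log2 fold changes from 0.69 to 0.81, and none of these fits called it.

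miR-7a-5p, best known from neuroendocrine cells and as a repressor of growth factor signaling, is encoded in an intron of Hnrnpk at chr13:58392841-58392863, and at a second locus. Its 922 and 688.5 RPM with CAG-EGFP-Lin28IR overlapped with the 566 and 745 RPM of CAG-EGFP-MosIR. On the TMM scale the plasmids did not overlap, with a log2 fold change of 0.64 (SE 0.21) and an adjusted p of 0.298 by edgeR. miR-32-5p, in an intron of Tmem245 at chr4:56895272-56895293, had 31.7 and 19.2 RPM against 23.5 and 14.1 RPM. In both plasmids replicate 1 was the higher library, and the plasmids overlapped in RPM though not on the TMM scale. Its log2 fold change was 0.75 (SE 0.24, adjusted p 0.298 by edgeR).

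The remaining 6 of the 10 lowest p among miRNAs of at least 10 RPM all had an adjusted p of 0.768. miR-1291, whose locus lies in the snoRNA gene Snora34, had 308 and 183 RPM against 217 and 208 RPM, so its highest and its lowest library were the CAG-EGFP-Lin28IR duplicates. miR-125a-5p, which is encoded beside let-7e and has the seed of miR-125b, had 1465 and 1182 RPM against 1191 and 1275 RPM. miR-340-5p had 85.7 and 86.1 RPM against 73.0 and 89.1 RPM, and miR-542-3p had 38.2 and 31.4 RPM against 32.7 and 30.7 RPM. None of these was separated on the RPM scale, and all 4 were on the TMM scale. miR-22-3p, abundant in mesenchymal cells, had 769.6 and 506 RPM against 685 and 462 RPM, again with replicate 1 higher in both plasmids and an overlap on either scale. miR-361-5p was the only negative value of the 10 and the only one of these 6 without overlap in RPM, with 109 and 107 RPM against 188 and 174 RPM (log2 fold change −0.39, SE 0.19). The plot of the levels of these miRNAs shows how often the libraries of the plasmids interleave.

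**Figure D2:**
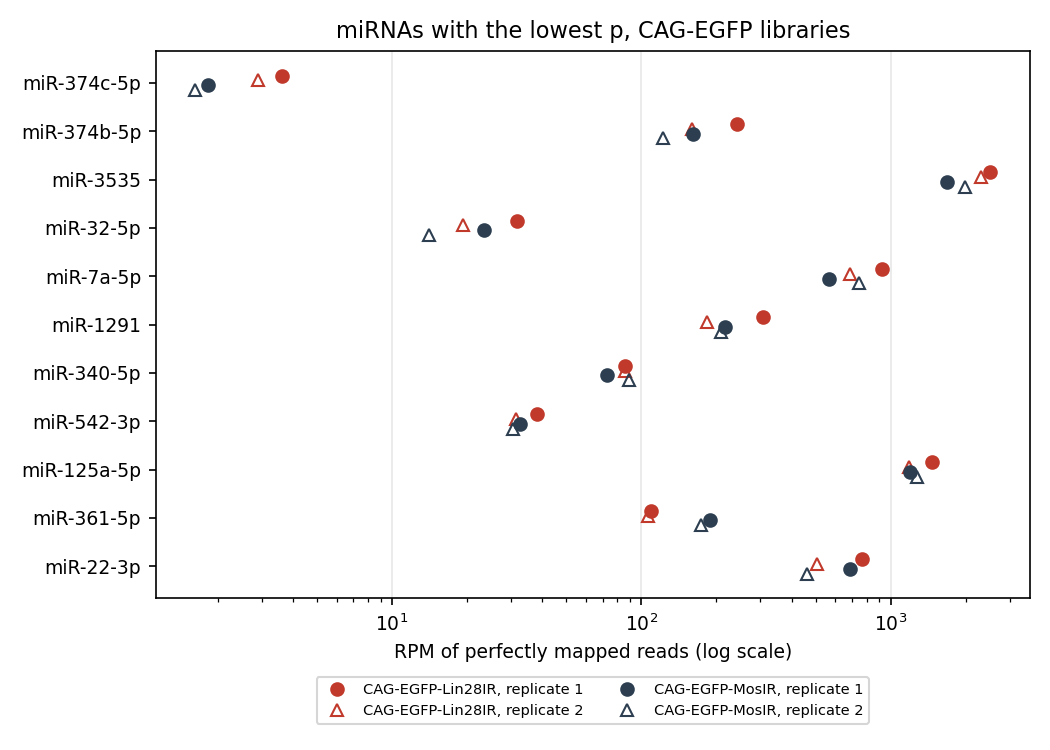
RPM in each of the 4 CAG-EGFP libraries on a log axis, for miR-374c-5p and the 10 miRNAs of at least 10 RPM with the lowest p, with red for CAG-EGFP-Lin28IR, dark blue for CAG-EGFP-MosIR, filled circles for replicate 1 and open triangles for replicate 2. The plasmids are separated for miR-374c-5p, miR-3535 and miR-361-5p, and overlap for the other 8.

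The let-7 and miR-98 guide strands showed no difference that passed the test. Of the 10 listed, 9 were tested and 0 called. Their log2 fold changes were positive in 9 of 9, from 0.10 to 0.38 with a median of 0.32, against 0.005 over all miRNAs, but without TMM the median was −0.036 and 8 of 9 were negative. Summed over the family, let-7 took 27772 and 20373 RPM with CAG-EGFP-Lin28IR and 17807 and 33361 RPM with CAG-EGFP-MosIR. The CAG-EGFP-MosIR duplicates thus lay on either side of both CAG-EGFP-Lin28IR libraries, with the lowest and the highest let-7 level.

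The same order was seen in single members, with let-7b-5p and let-7d-5p as the exceptions. let-7f-5p, the most abundant member, had 9015 and 6600 RPM with CAG-EGFP-Lin28IR and 5435 and 11478 RPM with CAG-EGFP-MosIR (log2 fold change 0.25, SE 0.25, 95% interval −0.27 to 0.76, adjusted p 0.894 by edgeR). let-7a-5p had 6079.6 and 4445 RPM against 3593 and 7073 RPM (0.34, SE 0.24, interval −0.16 to 0.84). let-7g-5p had 3690.3 and 2809 RPM against 2776 and 4646 RPM (0.17, SE 0.23, interval −0.30 to 0.63). In each of them CAG-EGFP-MosIR replicate 2 was the highest of the 4 libraries and replicate 1 the lowest. let-7b-5p gave the largest value of the family, 0.38 (SE 0.24), with 669 and 430.1 RPM against 413 and 658 RPM, so that CAG-EGFP-Lin28IR replicate 1 was the highest library. let-7d-5p, which differs from the others in its first base, gave the smallest, 0.10 (SE 0.23), with 1362 and 1018 RPM against 1071 and 1766 RPM, and CAG-EGFP-Lin28IR replicate 2 was its lowest library. On the TMM scale only let-7i-5p was without overlap, against 31.4% of all tested miRNAs. let-7i-5p (0.34), let-7e-5p (0.32), miR-98-5p (0.32) and let-7c-5p (0.31) lay between. let-7k, with 5 to 11 counts per library, was too low to be tested. The value hung on single libraries: let-7a-5p ran from −0.016 without CAG-EGFP-MosIR replicate 1 to 0.77 without CAG-EGFP-MosIR replicate 2, and let-7f-5p from −0.15 to 0.74. The intervals of both include no difference.

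**Figure D3:**
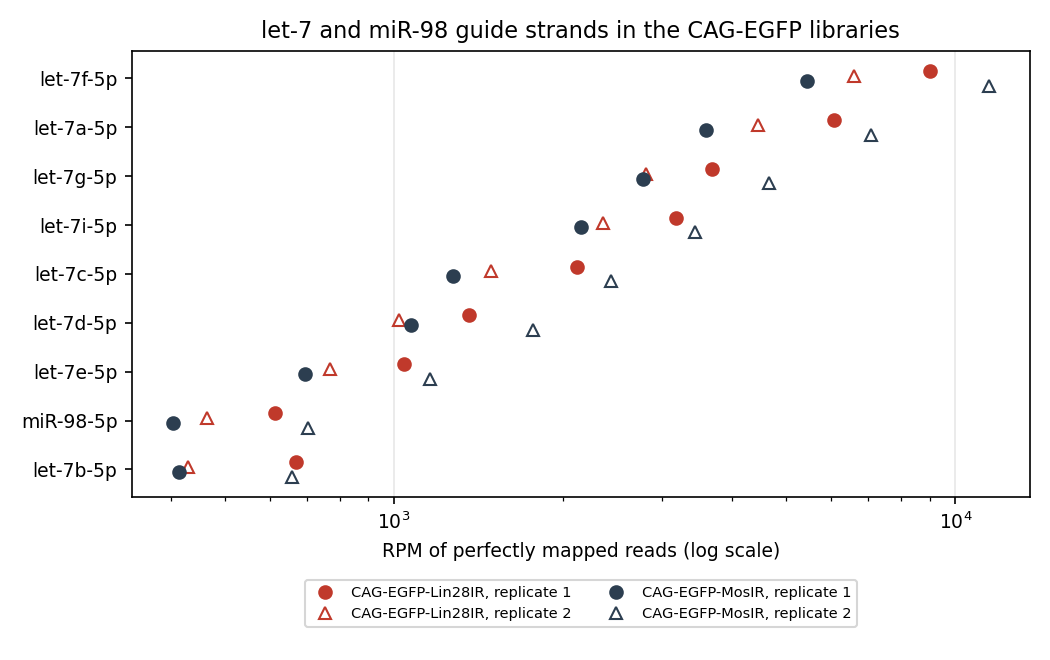
RPM of the 9 tested let-7 and miR-98 guide strands on a log axis in the 4 CAG-EGFP libraries, with red for CAG-EGFP-Lin28IR, dark blue for CAG-EGFP-MosIR, filled circles for replicate 1 and open triangles for replicate 2. The CAG-EGFP-MosIR duplicates lie at or near the extremes of every row (5435 and 11478 RPM for let-7f-5p), with the CAG-EGFP-Lin28IR libraries between or close to them.

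The let-7 passenger strands, which come from the same hairpins, were mixed. Of 11 tested, 7 were positive and 4 negative, with a median log2 fold change of 0.23 (−0.14 without TMM) and 0 called. The summed level of the passengers was even over the libraries, 235 and 224 RPM against 252 and 250.1 RPM. Both the counts of signs and the sum include let-7a-1-3p and let-7c-2-3p, which have the same sequence. Their counts were nearly equal (662 and 667 in CAG-EGFP-Lin28IR replicate 1), so they are not separate observations. Between the CAG-EGFP-MosIR duplicates, the log2 difference of replicate 2 over replicate 1 had a median of 0.60 over the guide strands. Over the passengers the median was −0.061, with gaps of either sign in single names. It was −0.55 for let-7i-3p, −0.45 for let-7d-3p and 0.44 for let-7g-3p, the last on 18 and 28 counts.

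Of the 10 most abundant miRNAs, 0 were called, and 2 were without overlap on the TMM scale, against 31.4% of all tested miRNAs. The 2 were miR-26a-5p (lower with CAG-EGFP-Lin28IR) and let-7i-5p (higher, a direction that turns without TMM). miR-21a-5p, well known from fibroblasts and many tumors and encoded in an exon of Vmp1, was at 35100 and 28279 RPM with CAG-EGFP-Lin28IR and at 35297 and 44943 RPM with CAG-EGFP-MosIR. Both CAG-EGFP-Lin28IR libraries were the lower on this scale, but its log2 fold change was 0.011 (SE 0.23), a sign that turns under several other settings. miR-31-5p had 7416 and 4543 RPM against 8548 and 8539 RPM (−0.19, SE 0.23). miR-26a-5p had 3454 and 3095 RPM against 4306.5 and 6045 RPM (−0.30, SE 0.22), with no overlap on either scale. miR-125b-5p, with 4363 and 3972 RPM against 5404 and 4952 RPM, gave 0.035 (SE 0.23). miR-24-3p overlapped, with 2962 and 1824.5 RPM against 3016 and 2689.8 RPM (0.067, SE 0.22). miR-29a-3p, which represses collagen mRNAs in fibroblasts, overlapped as well, with 3026 and 2295 RPM against 3908 and 2857 RPM (−0.019, SE 0.23).

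On the RPM scale, 160 of the 360 tested miRNAs (44.4%) had no overlap between the plasmids, 151 of them (41.9%) lower and 9 (2.5%) higher with CAG-EGFP-Lin28IR. On the TMM scale there were 113 (31.4%), and the split became 53 lower (14.7%) and 60 higher (16.7%). Without overlap and with at least 100 RPM, the largest negative fold changes after miR-361-5p were those of miR-214-3p, miR-103-3p, miR-17-5p and miR-106b-5p. miR-214-3p, from the Dnm3os transcript of mesenchymal cells, had 101 and 86.8 RPM against 159.6 and 153.6 RPM (−0.39, SE 0.20, adjusted p 0.768 by edgeR). miR-103-3p, in an intron of Pank2, had 313 and 233 RPM against 395 and 489 RPM (−0.35, SE 0.19). Both stayed separated on the TMM scale, while miR-17-5p and miR-106b-5p did not. Among such miRNAs only miR-3535 was higher per read. The other positive TMM-scaled values, of which the largest follow, thus belonged by selection to miRNAs that were lower per read. miR-101b-3p had 363 and 365 RPM against 367 and 436 RPM, yet a log2 fold change of 0.22 (SE 0.21), and miR-155-5p, an immune response miRNA, had 107 and 97.7 RPM against 109 and 134 RPM and 0.11 (SE 0.19). For miR-101a-3p (0.15) and miR-92a-3p (0.092) the scales disagreed in the same way, and also for miR-5126 (0.14), with a lower mean of 55.8 RPM.

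The CAG-EGFP-MosIR duplicates differed more from each other than any other duplicates of the study. Over the 176 miRNAs of at least 10 RPM, the log2 difference between replicate 2 and replicate 1, on the TMM scale, had an SD of 0.46 with CAG-EGFP-MosIR, against 0.25 with CAG-EGFP-Lin28IR, 0.28 with U6-Lin28aIR and 0.25 with U6-MosIR. A gap over 1.5-fold was seen for 34 miRNAs between the CAG-EGFP-MosIR duplicates and for 3 between those of CAG-EGFP-Lin28IR. The contrast of the plasmid means had an SD of 0.23 and 4 gaps over 1.5-fold, and means of 2 libraries vary less than single libraries. In no plasmid were the duplicates within sampling noise of each other: chi-square per degree of freedom over the 360 miRNAs was 51.8 to 216, with the highest for CAG-EGFP-MosIR. They were counted as separate samples because they are separate wells.

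In replicate 2 of CAG-EGFP-MosIR the let-7 guides and miR-183-5p were higher, the latter at 451 and 959 RPM in replicates 1 and 2. miR-183-5p belongs to a cluster known from sensory organs, and with 659 and 529.5 RPM under the Lin28 hairpin its log2 fold change was 0.12 (SE 0.24). Lower in replicate 2 were miR-5121, with 1005.5 and 652 RPM, and the miR-29 family, where miR-29c-3p went from 31.0 to 13.2 RPM and miR-29b-3p from 66.6 to 36.0 RPM. miR-15a-5p, a repressor of cell cycle genes, went from 127 to 64.2 RPM, and in the CAG-EGFP-Lin28IR duplicates from 118 to 60.5 RPM. The gap of miR-15a-5p thus ran between replicate numbers and not between plasmids. The plot of the differences between duplicates shows the wider cloud of the CAG-EGFP-MosIR libraries.

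**Figure D4:**
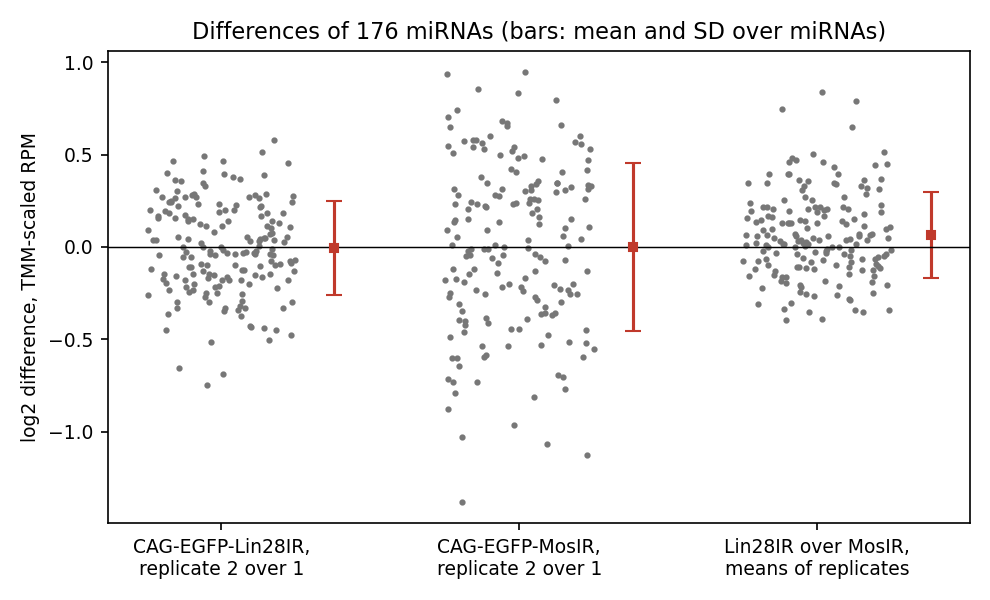
Log2 differences on the TMM scale for the 176 miRNAs of at least 10 RPM (gray points, spread sideways for visibility), between the duplicates of each plasmid and between the plasmid means, with red squares and bars for the mean and SD over miRNAs. The SD is 0.25 for the CAG-EGFP-Lin28IR duplicates, 0.46 for the CAG-EGFP-MosIR duplicates and 0.23 for the plasmid means.

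Without CAG-EGFP-MosIR replicate 1, 9 miRNAs passed the threshold, all higher with CAG-EGFP-Lin28IR: miR-15a-5p, miR-193a-3p, miR-22-3p, miR-29b-3p, miR-32-5p, miR-374b-5p, miR-374c-5p, miR-5121 and miR-96-5p. In that fit CAG-EGFP-MosIR is a single library, assumed to vary like the other groups. Without CAG-EGFP-MosIR replicate 2, 0 passed. miR-96-5p, for example, had 179 and 119 RPM in the CAG-EGFP-MosIR duplicates and 189 and 131 RPM in those of CAG-EGFP-Lin28IR, with replicate 1 higher in both.

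Seed families were formed from the tested names with a mature sequence. Among those with at least 3 such members, the let-7 family had the highest median. The lowest, −0.28, was that of the miR-17 family (miR-17-5p, miR-20a-5p, miR-93-5p and miR-106b-5p). The miR-17 family, which promotes proliferation and is encoded in the oncogenic miR-17-92 cluster on chromosome 14 and in an intron of Mcm7, was lower with CAG-EGFP-Lin28IR in 4 of 4 members, both on the TMM scale and without overlap on the RPM scale (background 41.9%). On the TMM scale 2 of the 4 members were lower without overlap (background 14.7%). The family summed to 1755 and 1393 RPM against 2441 and 2297 RPM. miR-93-5p, its most abundant member, had 754 and 679 RPM against 1097 and 1079 RPM (−0.25, SE 0.20, adjusted p 0.793 by edgeR). miR-17-5p had 371 and 226 RPM against 510.2 and 428 RPM (−0.33, SE 0.21), and miR-106b-5p had 168 and 129 RPM against 272 and 186 RPM (−0.30, SE 0.21). miR-20a-5p had 463 and 358.5 RPM against 561 and 603.5 RPM (−0.16, SE 0.19). None passed the test, and miR-106b-5p turned to 0.085 without CAG-EGFP-MosIR replicate 1.

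The miR-15 and miR-16 family, which holds back the cell cycle, was negative in 5 of 6 members (median −0.17, 0 called), with a sum of 3368 and 2122 RPM against 3858 and 3319 RPM. miR-16-5p made up most of it and had a log2 fold change of −0.029 (SE 0.23), while miR-322-5p had −0.37 (SE 0.20) and miR-15a-5p 0.19 (SE 0.27). The miR-29 family had a median of −0.019 and the miR-181 family −0.017. The seed that miR-32-5p shares with miR-25-3p, miR-92a-3p and miR-92b-3p had a median of 0.0014. Its members spread widely, with miR-32-5p at 0.75 and miR-25-3p at −0.21 (SE 0.22), so the value of miR-32-5p was not that of its family. The miR-125 family (miR-125a-5p, miR-125b-5p and miR-351-5p) was positive in 3 of 3 (median 0.14), and the miR-30 family, abundant regulators in many tissues, was positive in 3 of 5 guide strands (median 0.12). miR-30c-5p had 1002 and 827 RPM against 914 and 961 RPM (0.31, SE 0.21). Without TMM the medians of these last families were −0.23 and −0.21.

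**Figure D5:**
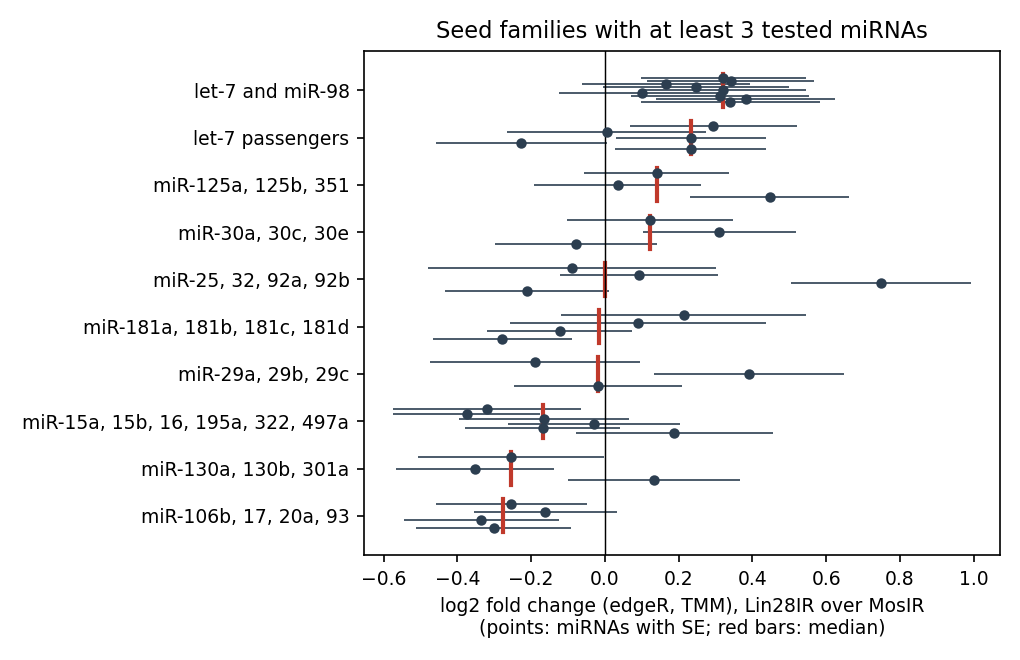
TMM-scaled log2 fold changes of CAG-EGFP-Lin28IR over CAG-EGFP-MosIR with their SE for the members of the 10 seed families with at least 3 tested miRNAs, and the median of each family as a red bar. Tested names for which no mature sequence was found, such as miR-30b-5p and miR-30d-5p, are not drawn. Medians run from −0.28 for the miR-17 family to 0.32 for let-7, whose median is −0.036 without TMM, and the SE of most members reach across those of the neighboring families.

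Lists of other functions held no called miRNA. Of the 7 tested miRNAs known to respond to interferon and NF-kB signaling, which dsRNA can activate, 4 were positive and 3 negative (median 0.035). Of the 8 tested that respond to p53, 3 were positive and 5 negative (median −0.085), and miR-34c-5p, the most abundant, had 710.0 and 479 RPM against 874 and 710.3 RPM. The 12 strands of the miR-17-92 cluster were split into 6 and 6 (median 0.028). Of the 7 tested miRNAs that bypass the nuclease Drosha but need Dicer, 6 were negative (median −0.10), and miR-320-3p, at about the level of miR-484, had 84.2 and 88.6 RPM against 104 and 135 RPM (−0.10, SE 0.21). miR-451a, which needs no Dicer, was too low to be tested. The 6 miRNAs often used as references gave a median of −0.091, with values from −0.35 for miR-103-3p to 0.35 for miR-423-5p. The 7 fibroblast markers gave 4 positive and 3 negative values (median 0.011).

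Genomic clusters, taken as tested names of a strand chained at 10 kb. There were 29 with at least 3 names. The highest medians were those of the miR-374b cluster (0.39, 3 names), of the X-linked let-7f and miR-98 cluster in Huwe1 (0.31, 4 names) and of the let-7b and let-7c cluster on chromosome 15 (0.27, 4 names). Without TMM these medians were 0.030, −0.049 and −0.091. In the X-linked miR-450b to miR-322 cluster 8 of 12 names were positive (median 0.21, −0.14 without TMM), among them miR-542-3p. In the cluster of miR-182, miR-96 and miR-183, 4 of 6 were positive (median 0.12, −0.25 without TMM). Its most abundant member, miR-182-5p, had 1991 and 1836 RPM against 1758 and 2825 RPM (0.11, SE 0.24).

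The more abundant arm of a hairpin was nearly always the same in the 4 libraries. Of 36 hairpins with at least 10 RPM on both arms, 35 had the same arm as the more abundant in all 4 libraries, 23 the 5p arm and 12 the 3p arm, with miR-322 as the exception. The log2 ratio of 5p over 3p did not overlap between the plasmids in 9 of the 36 hairpins and was higher with CAG-EGFP-Lin28IR in 5 of these. A difference in this ratio was not tested. For the miR-361 hairpin it was 2.48 and 2.35 with CAG-EGFP-Lin28IR and 3.12 and 2.63 with CAG-EGFP-MosIR. For miR-374b it was 4.02 and 3.46 against 3.67 and 2.92, an overlap. miRNA counts without a mismatch made up 98.98% and 98.94% of those with up to 2 mismatches with CAG-EGFP-Lin28IR, against 99.01% and 99.04% with CAG-EGFP-MosIR. Over 99 miRNAs of at least 1000 counts, the median share of counts with a mismatch was 0.663% and 0.665%. miR-5099 stood far above, at 58.0% to 64.0%, in both plasmids.

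The fold changes varied with base composition. Over 157 miRNAs of at least 10 RPM with a sequence, the correlation of the log2 fold change with GC content was −0.32 (Pearson) and −0.35 (Spearman). These miRNAs share the same 4 libraries and members of a family share their sequence, so this is a description. Of 36 miRNAs under 40% GC, 29 were positive (median 0.21). Of 79 with 40 to 50% GC, 45 were positive (median 0.020), and of 42 over 50% GC, 19 were positive (median −0.021). In the U6 plasmids the same correlation was 0.056. Between the duplicates it was 0.17 with CAG-EGFP-Lin28IR and 0.042 with CAG-EGFP-MosIR. Low GC content goes with several of the miRNAs nearest to the threshold, such as miR-340-5p (27.3%), miR-374b-5p, miR-32-5p and miR-542-3p (31.8% each), and with let-7f-5p (31.8%). The part of base composition in their values was not tested.

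In the U6 plasmids, the fit of U6-Lin28aIR against U6-MosIR called 0 of 360 miRNAs (0%), with 1 at an unadjusted p under 0.05 (0.278%). The U6 plasmids carry shorter dsRNA, and the Lin28 one is named for Lin28a alone. The log2 fold change was 0.044 for miR-374b-5p, −0.22 for miR-3535, 0.014 for miR-32-5p, −0.095 for miR-7a-5p and 0.012 for miR-361-5p. The median over the let-7 guide strands was 0.038 and over the miR-17 family −0.069. The test of the difference between the CAG-EGFP and U6 contrasts called 0 of 360 by edgeR (13 at an unadjusted p under 0.05, 3.61%, and 0 by DESeq2), with a lowest adjusted p of 0.890. miR-3535 had an unadjusted p of 0.00644 and an adjusted p of 0.890 in this test. Without CAG-EGFP-MosIR replicate 1 it called 3, miR-32-5p, miR-374b-5p and miR-5121.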

How the data were processed

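Total RNA of the transfected wells was made into libraries with the NEXTflex small RNA kit and sequenced on a HiSeq2000. STAR 2.5.3a and the genome build mm10 are listed in the submitters' processing notes. The authors deposited whole-number counts per miRNA locus, without mismatch and with up to 1 or 2 mismatches, and counts of perfectly mapped reads by length. The sources used here do not give how reads mapping to several loci were assigned. Names with the same sequence could have nearly the same counts. miR-199a-3p and miR-199b-3p had 11814 and 11805 counts with up to 2 mismatches in CAG-EGFP-Lin28IR replicate 1. Differences between duplicates were equal for all tested miR-466 names. Such names were tested separately, so the numbers of tested names hold some repeats. Whether a read was counted in full at each locus was not tested. Of 2108 loci, the locus with the highest total represented each of 1966 mature names, and 1019 names were detected in the 8 libraries. Counts without mismatch were divided by perfectly mapped reads (12898619 to 16228597 per library) to give RPM. Coordinates are in GRCm38.

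Names with sufficient counts (edgeR's filterByExpr, 360 names) were tested with edgeR 4.0.16 (R 4.3.3): TMM factors, a robust quasi-likelihood fit of the 4 plasmids over 8 libraries, and Benjamini-Hochberg adjustment at 0.05. Each p-value of this fit weighs a difference between plasmids against the spread between wells, estimated over the 4 plasmids together. Library shares were compared by exact permutation tests (SciPy 1.17.1). DESeq2 1.42.0, other scalings, filters and mismatch limits, summed loci, a replicate block and leaving out each library were tried. The fit was tested on simulated data. Named miRNAs were the 10 with the lowest p among those of at least 10 RPM, the 10 most abundant, the largest fold changes without overlap and the largest gaps between duplicates (both at 100 RPM or more), the let-7 guide strands, the most abundant members of each list, cluster and seed family, miR-30c-5p, which the study names, and miR-3535 and miR-5126, which earlier results of these data named. Other names in the text were chosen after their values were seen. The members and lists were chosen with earlier results of these data known. Mature sequences were found for 315 of the 360 tested names.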

Additional observations from a re-analysis of the deposited data

How the results depend on the processing

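The count of 0 called miRNAs between the CAG-EGFP plasmids held under DESeq2, without TMM, without a filter on low counts, at a mean of at least 10 RPM, with mismatches, with loci summed, without robust estimation and with the CAG-EGFP libraries alone. Leaving out a library gave 0 to 9: 9 without CAG-EGFP-MosIR replicate 1, 2 without U6-Lin28aIR replicate 1, 2 without U6-Lin28aIR replicate 2, 2 without U6-MosIR replicate 1 and 0 without each of the others. The test of the difference from the U6 contrast gave 0 to 3 calls, the 3 without CAG-EGFP-MosIR replicate 1. In fits that leave a plasmid with a single library, its spread is taken from the other plasmids. Names without overlap in RPM numbered 87 of 187 at a mean of at least 10 RPM.

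The replicate block called 0, with 17 at an unadjusted p under 0.05 and a lowest adjusted p of 0.0854. Over all plasmids, replicate numbers did not pair the samples in one direction. Deviations of same-numbered libraries correlated at 0.35 between the CAG-EGFP plasmids, 0.080 between the U6 plasmids, and −0.26 to −0.46 across them. The block spanned all plasmids, and a block for the CAG-EGFP libraries alone was not tested.

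Of 666 log2 fold changes of 37 named miRNAs under the alternatives, 41 changed sign, in 21 miRNAs. Without TMM, 18 did: miR-21a-5p (−0.34), let-7f-5p (−0.12), let-7a-5p (−0.019), miR-125b-5p (−0.31), let-7g-5p (−0.19), let-7i-5p (−0.013), miR-24-3p (−0.25), miR-101b-3p (−0.14), miR-101a-3p (−0.21), miR-155-5p (−0.24), miR-92a-3p (−0.27), miR-183-5p (−0.25), let-7c-5p (−0.044), let-7d-5p (−0.25), let-7e-5p (−0.035), miR-98-5p (−0.036), miR-30c-5p (−0.036) and miR-5126 (−0.23). miR-21a-5p also turned under DESeq2 (−0.0036), without a filter (−0.075), at 10 RPM (−0.0069), with loci summed (−0.0053) and with the CAG-EGFP libraries alone (−0.0004). Without a filter, miR-125b-5p (−0.056) and miR-24-3p (−0.018) turned. Leaving out each library gave −0.087 to 0.11 for miR-21a-5p, −0.15 to 0.74 for let-7f-5p, −0.43 to 0.091 for miR-31-5p, −0.016 to 0.77 for let-7a-5p, −0.14 to 0.18 for miR-125b-5p, −0.10 to 0.45 for let-7g-5p, −0.33 to 0.31 for miR-29a-3p, −0.17 to 0.35 for miR-24-3p, −0.021 to 0.19 for miR-92a-3p, −0.65 to 0.085 for miR-106b-5p, −0.27 to 0.62 for miR-183-5p, −0.032 to 0.72 for let-7c-5p and −0.16 to 0.37 for let-7d-5p. Apart from the effect of the scaling itself, the cause was not tested. With 2 libraries a plasmid, the 95% interval of miRNAs of at least 10 RPM reached a median of 0.43 to either side on the log2 scale.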

Other observations

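The 12 tested miRNAs whose locus lies in a snoRNA gene, a grouping made after their values were seen, summed to 3688 and 3407 RPM with CAG-EGFP-Lin28IR and 2930.5 and 2889 RPM with CAG-EGFP-MosIR. The plasmids did not overlap, and CAG-EGFP-Lin28IR was the higher, while the other 348 summed to 132000 and 105367 RPM against 128980 and 161860 RPM and overlapped. The separation rested on miR-3535: without it the sums were 1187 and 1113 RPM against 1256 and 897 RPM and overlapped. Without overlap in RPM, 1 of the 12 names was above and 7 were below in CAG-EGFP-Lin28IR. Over all 360 tested names these shares were 2.5% and 41.9%. On the TMM scale 2 of the 12 were above and 2 below, against 16.7% and 14.7% of all. The log2 fold changes of the 12 names were positive in 4 and negative in 8 (median −0.052). The part of snoRNA reads in these counts was not tested. The share of counts with a mismatch was 4.45% and 4.24% against 4.34% and 4.20% for miR-3535, above the median of abundant miRNAs in both plasmids.

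Some miRNAs of low level had wide values. miR-182-3p had 3.20 and 2.39 RPM with CAG-EGFP-Lin28IR and 1.55 and 1.70 RPM with CAG-EGFP-MosIR, without overlap, and an adjusted p of 0.154 by edgeR with a log2 fold change of 1.12 (SE 0.31). miR-124-3p, a defining miRNA of neurons, had the largest log2 fold change of all tested names (SE 0.91, adjusted p 0.768 by edgeR), which rested on 11 and 8 counts against 2 and 3 counts. miR-147-3p, known from inflammatory responses of macrophages, had 4.77 and 3.20 RPM against 3.17 and 2.65 RPM (log2 fold change 0.79, SE 0.29, adjusted p 0.631 by edgeR). These 3 were chosen after their values were seen.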
